A study of Mus musculus with 8 samples.

Results

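Schwann cells ensheathe the motor and sensory axons that run through a muscle, and their RNA is measured together with that of the muscle fibres when whole gastrocnemius, the large calf muscle, is extracted. The set described here was chosen by name as 8 Schwann cell and myelin genes: Mbp, Pmp22, Sox10, S100b, Prx, Mag, Ncam1 and Egr2. Every probe set whose single gene symbol in the platform annotation was one of them was taken, which gave 24 probe sets for 7 genes, out of 18193 genes with such a probe set in the table. Prx, which encodes a scaffold protein of the Schwann cell membrane, had no probe set under this rule and was not analysed here.

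Total RNA of 8 mouse gastrocnemius samples was hybridised to 1 Affymetrix array each. The 4 GRKO samples are labelled as knockouts of the glucocorticoid receptor (gene Nr3c1), which switches genes on or off when it binds its steroid hormone, and the series names this genotype GR(i)skm-/-. The 4 WT samples are labelled wild type, both groups have the strain background C57/Bl6J, and no agent is named for either. The labels give neither the promoter that drives the deletion nor the age or sex of the mice. Which cells of the muscle carry the deletion, and so whether Schwann cells do, is not stated in the labels. The comparison asks which transcripts of the muscle differ between the genotypes. Since no label ties a sample to its own mouse, a p-value here speaks of the spread among the 4 samples of a group, which may be technical.

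Compact myelin is built from membrane wraps that are held together by proteins such as myelin basic protein (Mbp) and peripheral myelin protein 22 (Pmp22), while myelin-associated glycoprotein (Mag) sits in the innermost wrap, facing the axon. The transcription factor Sox10 defines the Schwann cell lineage, and it acts with Egr2, also called Krox20, to switch on the myelin genes. S100b is a calcium-binding protein used to stain Schwann cells. Ncam1 is an adhesion molecule of Schwann cells that do not make myelin, and it also appears on muscle fibres that have lost their nerve.

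The receptor transcript was lower in the GRKO samples. The Nr3c1 probe set 1460303_at had signals of 134, 79, 76 and 94 on the GRKO arrays, against 377, 307, 307 and 352 on the WT arrays (log2 fold change -1.84 ± 0.20 SE, limma adjusted p = 0.0240). The probe set 1457635_s_at also passed (-1.96 ± 0.25 SE, limma adjusted p = 0.0354), while the other 3 tested probe sets of Nr3c1 had log2 fold changes between -1.07 and -0.32 and did not. Both calls depended on the processing: over 19 alternatives 1460303_at passed in 11 and 1457635_s_at in 8, with limma adjusted p-values up to 0.195 and 0.256, while their log2 fold changes stayed between -2.02 and -1.74 and between -2.12 and -1.80. The calls were lost, among others, without GRKO replicate 2, 3 or 4 or WT replicate 1 or 3. With all arrays, the 2 Nr3c1 probe sets were among 5 probe sets past an adjusted p of 0.05 among the 22518 tested, or 0.0222%, and all 5 were lower in GRKO muscle. Probe sets were tested when their mean log2 signal over the 8 arrays was above the median of the table, equal to a signal of 19.4. WT replicate 4 stood apart from the other arrays: its hybridisation spike-in signal was 2.79 times that of the median array and 2.04 times that of the next highest. All signals are MAS5 intensities on a linear scale, and levels of different probe sets cannot be set against each other. With 4 arrays a group, precision is limited.

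The probe sets of Mbp varied widely between arrays of the same genotype. Probe set 1433532_a_at had signals of 532, 1226, 1983 and 1500 in GRKO replicates 1 to 4, against 608, 704, 1829 and 377 in WT replicates 1 to 4. High values were thus found in both groups, in GRKO replicates 2, 3 and 4 and in WT replicate 3, and the groups overlapped. The mean was 1310.25 ± 605.9 in GRKO and 879.5 ± 647.7 in WT muscle (SD, n = 4 each). The geometric means differed 1.60-fold, a log2 fold change of 0.68 (SE 0.48, 95% interval from -0.37 to 1.73, limma adjusted p = 0.963). The highest array was 3.73 times the lowest within GRKO and 4.85 times within WT, so the range within a genotype was wider than the difference between genotypes. The split into groups held 16.3% of the variance of the log2 signals, and with 4 arrays a group some share arises without any effect. In bulk muscle, a difference in the number of Schwann cells and a difference in RNA per Schwann cell cannot be told apart.

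A further 5 Mbp probe sets had the same 4 highest arrays, though not in the same order. Probe set 1419646_a_at had 369, 685, 1261 and 802 on the GRKO arrays, against 333, 392, 1222 and 198 on the WT arrays. In all 6 of these probe sets the 4 highest signals came from GRKO replicates 2, 3 and 4 and WT replicate 3, and their log2 fold changes lay between 0.38 and 0.77. They are read-outs of 1 gene and not separate replicates of the genotype effect. The remaining tested one, 1425264_s_at, ran differently, with 62, 32, 9 and 21 on the GRKO arrays and 12, 47, 37 and 68 on the WT arrays (log2 fold change -0.48 ± 0.63 SE), at a geometric mean signal of 29.2. The dim probe set 1425263_a_at had 1 to 13 in GRKO and 6 to 15 in WT muscle and was not tested.

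Pmp22 had the same 4 highest arrays as Mbp at its probe set 1417133_at. Its signals were 747, 1294, 1958 and 1579 on the GRKO arrays, against 839, 822, 1883 and 575 on the WT arrays. GRKO replicates 2 to 4 and WT replicate 3 were again high, and GRKO replicate 1 lay below WT replicates 1 and 2. The difference was 1.41-fold (log2 fold change 0.50 ± 0.36 SE, 95% interval from -0.30 to 1.30, limma adjusted p = 0.963). Its within-group SD of 0.66 on the log2 scale was larger than that of 89.8% of all tested probe sets, and that of Mbp 1433532_a_at, 0.89, was larger than that of 96.1%, where the median over all tested probe sets was 0.33.

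Among the tested probe sets, Mag had the smallest p. Probe set 1460219_at had 41, 48, 70 and 61 on the GRKO arrays, against 33, 56, 35 and 24 on the WT arrays. WT replicate 2 lay above GRKO replicates 1 and 2, so the groups overlapped. The mean was 55.0 ± 13.0 in GRKO and 37.0 ± 13.5 in WT muscle (SD, n = 4 each). The geometric means differed 1.53-fold (log2 fold change 0.61 ± 0.29 SE, 95% interval from -0.03 to 1.25, limma unadjusted p = 0.0615, adjusted p = 0.963). Unlike Mbp and Pmp22, Mag was not high in WT replicate 3.

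**Figure D1:**
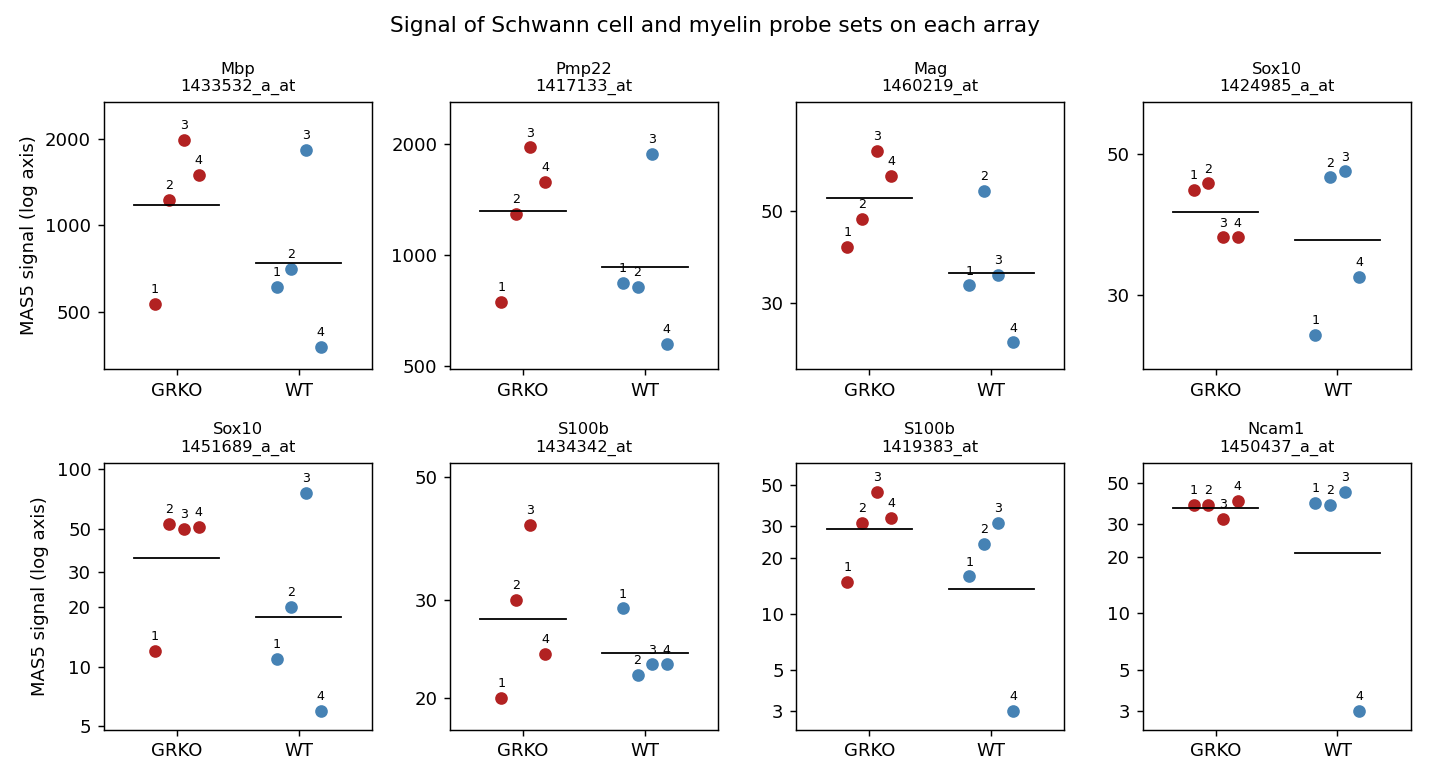
MAS5 signal (log axis) of 8 tested probe sets of Mbp, Pmp22, Mag, Sox10, S100b and Ncam1 on each array, with GRKO left and WT right; numbers are replicate numbers and bars are geometric means of 4 arrays. Mbp and Pmp22 are high in GRKO replicates 2 to 4 and WT replicate 3, and the Ncam1 mean of WT is set by replicate 4, at a signal of 3.

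The promoters of Pmp22 and Mag are shown because both genes entered the array profile described below. Mbp also entered it but had no sequence in the promoter set used here. The sequences are those of RefSeq on GRCm38.p6, from 250 bases before to 50 bases after the most upstream start in the table, which lists 4 starts for Pmp22 and 3 for Mag. The Pmp22 window is chr11:63128732-63129031 on the plus strand and the Mag window is chr7:30914873-30915172 on the minus strand, both written 5′ to 3′, and capitals mark motif matches.
Pmp22: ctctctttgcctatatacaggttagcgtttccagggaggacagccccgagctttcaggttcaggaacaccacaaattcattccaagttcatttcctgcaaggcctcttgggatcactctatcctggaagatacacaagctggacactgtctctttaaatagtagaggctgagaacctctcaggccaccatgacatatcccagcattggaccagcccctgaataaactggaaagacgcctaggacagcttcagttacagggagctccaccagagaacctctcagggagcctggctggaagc
Mag: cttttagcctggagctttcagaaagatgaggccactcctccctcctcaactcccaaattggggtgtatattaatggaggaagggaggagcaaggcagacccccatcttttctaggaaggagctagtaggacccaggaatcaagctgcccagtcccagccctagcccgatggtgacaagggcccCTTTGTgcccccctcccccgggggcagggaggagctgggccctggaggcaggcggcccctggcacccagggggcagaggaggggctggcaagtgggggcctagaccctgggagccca
The search covered a SOX core (ACAAAG or ACAATG), an EGR core (GCGTGGG), a glucocorticoid receptor half-site (AGAACA) and a full receptor site (AGAACA, any 3 bases, then TGTTCT), each on both strands. The Mag window held 1 SOX match, CTTTGT, which is ACAAAG on the other strand, and the Pmp22 window held 0 matches. Of 32851 promoter windows of this length, 28.6% held a SOX match, 5.04% an EGR match, 19.0% a half-site and 0.00913% a full site. A match describes letters only.

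The 2 tested probe sets of Sox10 gave different pictures. Probe set 1451689_a_at had 12, 53, 50 and 51 on the GRKO arrays, against 11, 20, 76 and 6 on the WT arrays. The 4 highest arrays were the same as for Mbp and Pmp22, though WT replicate 3 was highest here, and WT replicate 4 was lowest (log2 fold change 1.004 ± 0.74 SE, 95% interval from -0.61 to 2.62, limma adjusted p = 0.963). Probe set 1424985_a_at had 44, 45, 37 and 37 on the GRKO arrays and 26, 46, 47 and 32 on the WT arrays, a flatter pattern with a log2 fold change of 0.15 ± 0.25 (SE). Its within-group SD, 0.31 on the log2 scale, was larger than that of 46.6% of tested probe sets, near the middle. The third, 1425369_a_at, was dim, at 2 to 27 in GRKO and 2 to 16 in WT muscle, and was not tested.

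Egr2 was near or below the signal filter at both of its probe sets, so no test is given. Probe set 1427683_at had 14, 21, 27 and 19 on the GRKO arrays and 12, 16, 26 and 21 on the WT arrays. The groups overlapped almost completely, with GRKO replicate 3 and WT replicate 3 highest. Its geometric mean signal over the 8 arrays was 18.8, just outside the filter, while the dimmest tested probe set of the genes described here, S100b 1419383_at, was just inside at 19.96. Probe set 1427682_a_at lay between 7 and 21 in GRKO and between 5 and 18 in WT muscle.

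S100b was also measured by probe sets that differ. Probe set 1419383_at had 15, 31, 46 and 33 on the GRKO arrays, against 16, 24, 31 and 3 on the WT arrays. WT replicate 4 was far below the rest, and the log2 fold change of 1.08 ± 0.67 (SE, limma adjusted p = 0.963) became 0.34 without that array. Probe set 1434342_at had 20, 30, 41 and 24 on the GRKO arrays and 29, 22, 23 and 23 on the WT arrays, with a log2 fold change of 0.20 ± 0.29 (SE). S100b is also made by adipocytes, whose marker Adipoq had signals of 19 to 59 in GRKO and 19 to 87 in WT muscle, and the part of fat in these values was not tested.

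For Ncam1, 1 of 7 probe sets was bright enough to be tested. Probe set 1450437_a_at had 38, 38, 32 and 40 on the GRKO arrays, against 39, 38, 45 and 3 on the WT arrays. All arrays but WT replicate 4 lay between 32 and 45, and no GRKO array was above WT replicate 3. The log2 fold change of 0.80 ± 0.73 (SE, limma adjusted p = 0.963) rested on that array, and without it the value was -0.14. The dim Ncam1 probe sets lay at signals of 31 or less on all arrays. Among them 1426865_a_at had 13, 16, 17 and 14 on the GRKO arrays and 6, 15, 5 and 1 on the WT arrays, named here after its values were seen.

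Across the genes, 0 of 14 tested probe sets passed an adjusted p of 0.05 in limma, where 0.0222% of all tested probe sets did, and 0 had an unadjusted p under 0.05, against 3.75% of all tested probe sets. The groups overlapped at all 14, where 2.19% of all tested probe sets had groups that did not overlap. The log2 fold change was above 0 at 13 of 14, with a median of 0.64, against 47.8% above 0 and a median of -0.01 over all tested probe sets. Of these 13, 6 belong to Mbp, and all 14 were read from the same 8 arrays, so they do not count as separate observations. The highest log2 fold changes, 1.08 at S100b 1419383_at and 1.004 at Sox10 1451689_a_at, came from probe sets near the filter. The mean log2 signal of their WT arrays alone would not have passed the filter, set at a signal of 19.4, so passing it favoured a value above 0. The probe sets left untested had log2 fold changes on both sides of 0.

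The values changed when single arrays were left out. Without WT replicate 4, the log2 fold changes were 0.36 for Mbp 1433532_a_at, 0.27 for Pmp22, 0.42 for Mag and 0.48 for Sox10 1451689_a_at. Without WT replicate 3, which was high for Mbp and Pmp22, they were 1.12, 0.84, 0.61 and 1.70 in the same order of genes. Without GRKO replicate 1, the low one of its group, they were 1.06, 0.77, 0.74 and 1.53. Without GRKO replicate 3, the log2 fold change was 0.038 for Mbp 1454651_x_at, 0.26 for Mbp 1456228_x_at and 0.013 for S100b 1434342_at, against 0.38, 0.52 and 0.20 with all arrays. At an unadjusted p under 0.05, limma then gave 7 of 14 probe sets without GRKO replicate 1, 7 of 13 without WT replicate 3 and 0 of 14 without WT replicate 4. Over all 22518 tested probe sets, 1919, 790 and 897 had such a p in the same order, against 844 with all arrays. The Mbp probe sets among the 7 read 1 gene and are not separate observations. The lowest limma adjusted p-values of the members were 0.571, 0.895 and 0.999.

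**Figure D2:**
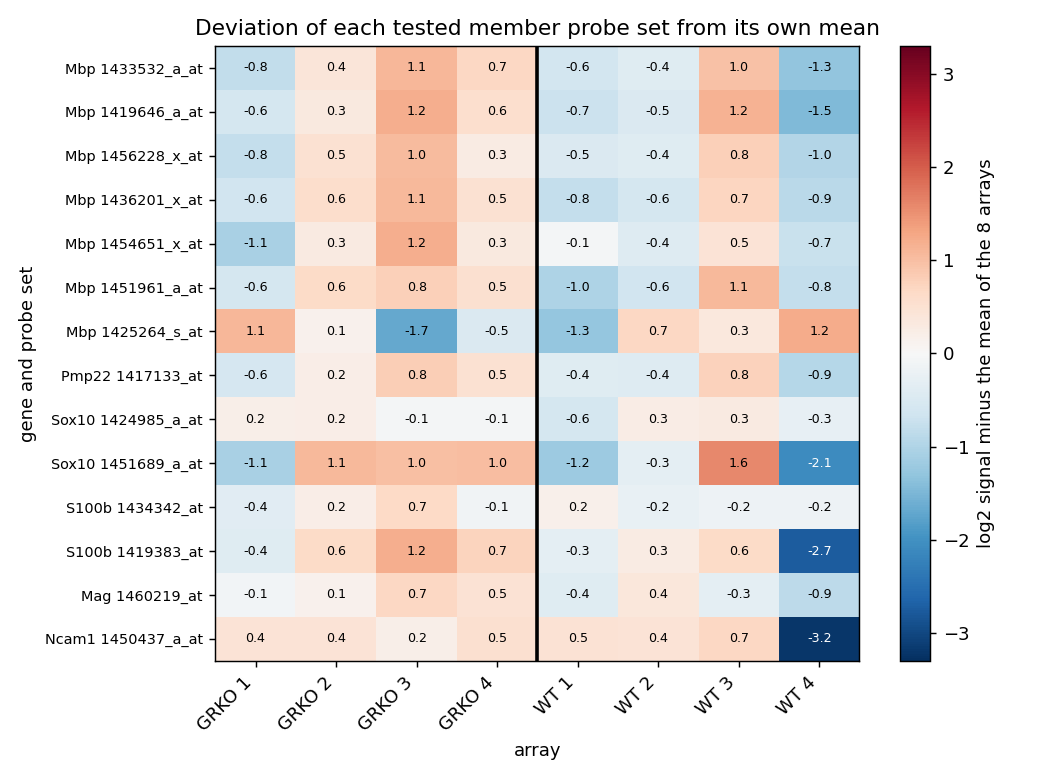
Deviation of the log2 signal from the mean of the 8 arrays for the 14 tested probe sets (rows) on each array (columns, GRKO left of the line and WT right). Mbp, Pmp22, Sox10 1451689_a_at and S100b 1419383_at share high values in GRKO replicates 2 to 4 and WT replicate 3, while Mbp 1425264_s_at and Sox10 1424985_a_at do not.

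**Figure D3:**
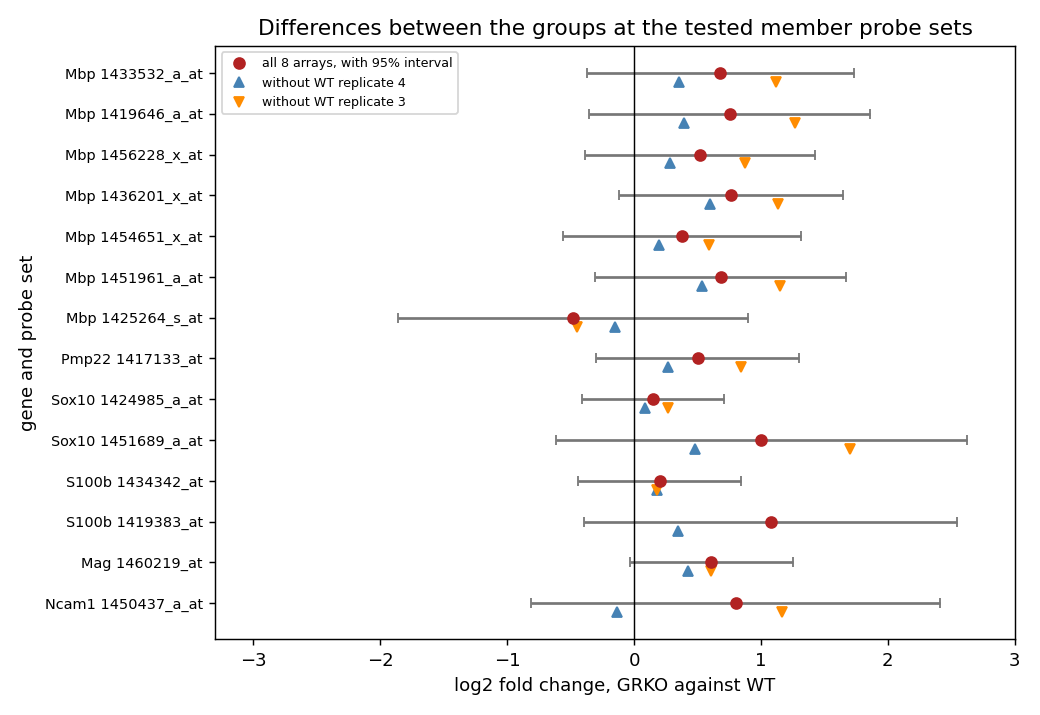
Log2 fold change of GRKO against WT (x axis) at the 14 tested probe sets with 95% intervals from limma, and the values without WT replicate 4 or WT replicate 3; S100b 1419383_at was below the signal filter without WT replicate 3. All 14 intervals include 0, and Ncam1 lies at -0.14 without WT replicate 4.

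Mbp, Pmp22 and Mag were joined into 1 profile, the mean of their centred log2 signals, to find the genes that most resembled them over the 8 arrays. The profile was -0.49, 0.25, 0.87 and 0.56 in GRKO replicates 1 to 4, against -0.47, -0.16, 0.47 and -1.04 in WT replicates 1 to 4. Values above 0 and values below 0 each came from both genotypes, and the widest gap set WT replicate 4 apart from the rest. The first principal component of the table, which took 44.5% of the variance and on which WT replicate 4 also lay at one end, had an r of 0.89 with the profile. A Pearson r with this profile is therefore a description of 8 arrays and is given without a p. The 6 genes outside the set with the highest r among 11062 genes were Fads1, Vwa1, Sncg, Polr2e, Fxyd3 and Ndrg1, with r between 0.97 and 0.98. Fads1 is a fatty acid desaturase, Polr2e an RNA polymerase subunit, Fxyd3 a regulator of the sodium pump, and Ndrg1 a protein that peripheral myelin needs, as its mutation causes a demyelinating neuropathy in humans.

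Fads1 had signals of 87, 117, 148 and 133 on the GRKO arrays, against 82, 107, 140 and 63 on the WT arrays. Ndrg1 had 334, 481, 649 and 573 on the GRKO arrays and 398, 452, 571 and 323 on the WT arrays. Fads1 and Ndrg1 were lowest in WT replicate 4 and highest in GRKO replicate 3. The log2 fold changes of the 6 genes lay between 0.21 and 0.35 (adjusted p = 0.963 for each, limma). Without WT replicate 4 their r lay between 0.95 and 0.97.

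A high r was common in this table. Of the 11062 genes, 10.04% had an r above 0.8 and 6.76% an r below -0.8, and without WT replicate 4 these shares were 5.33% and 3.01%. Among other genes of myelinating Schwann cells, chosen here after their values were seen, r was 0.92 for Ncmap, a protein of non-compact myelin, 0.89 for Fa2h, which makes the hydroxylated fatty acids of myelin lipids, 0.86 for Dhh, a signal from Schwann cells to the nerve sheath, and 0.86 for Cadm4, an adhesion protein that faces the axon. Ncmap had 24, 92, 124 and 87 on the GRKO arrays, against 42, 51, 103 and 32 on the WT arrays. Of all genes, 1.27% had a higher r than Ncmap, 2.61% than Fa2h, 4.64% than Dhh and 5.33% than Cadm4. By list, r was above 0.8 for 3 of 9 genes outside the profile in the non-compact myelin, node and adhesion list, with a median of 0.69. In the list named compact myelin, r was above 0.8 for 0 of 3 genes outside the profile, with a median of 0.71. It was above 0.8 for 1 of 10 lineage genes, with a median of 0.16 and 5 of 10 below 0, and for 1 of 7 myelin lipid genes, with a median of 0.46 and 2 of 7 below 0. Among the 4 genes of non-myelinating cells the median was 0.29 and 2 were below 0. The lowest r was -0.49 for the integrin Itga6 in the non-compact list and -0.73 for Nab1, a partner of Egr2, in the lineage list. The brighter Sox10 and S100b probe sets, which stand for these genes in the lists, had an r of 0.38 and 0.53, within the broad middle of the distribution. The dimmer tested ones, Sox10 1451689_a_at and S100b 1419383_at, had 0.94 and 0.91.

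**Figure D4:**
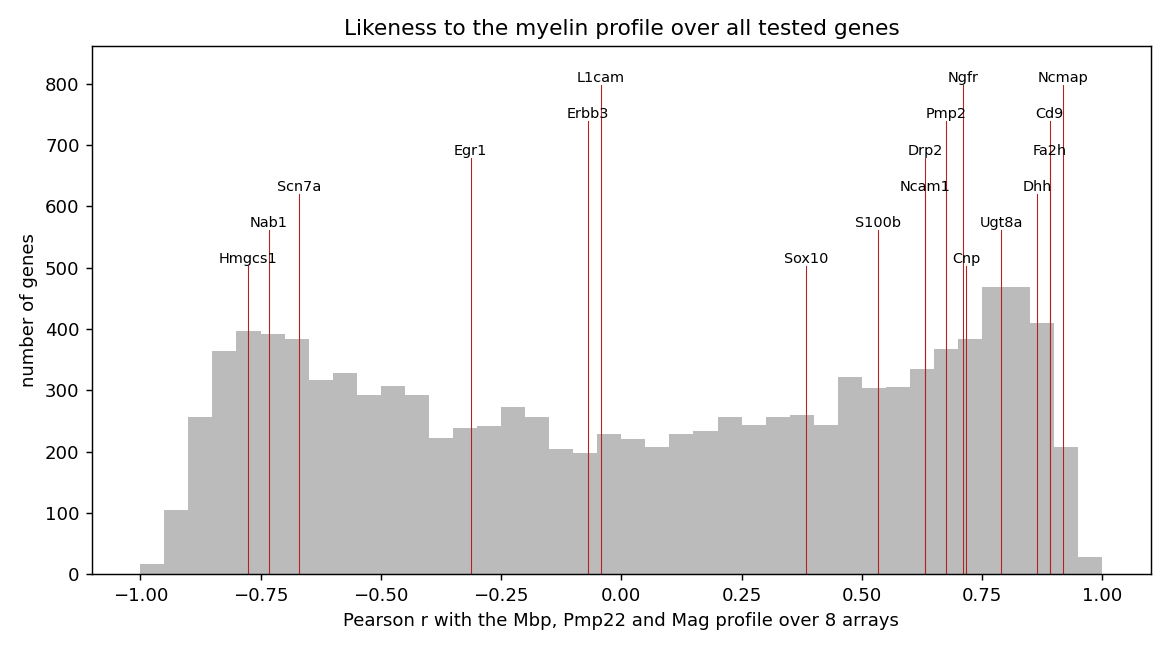
Number of genes (y axis) by Pearson r with the Mbp, Pmp22 and Mag profile over 8 arrays (x axis), with selected Schwann cell, myelin and other listed genes as red lines. Ncmap, Cd9, Fa2h and Dhh lie at the upper end, where 10.04% of all genes also have an r above 0.8, and Scn7a, Nab1 and Hmgcs1 lie at the lower end.

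Other genes of the pathway were read from 8 lists of 85 genes in all, of which 53 were tested at their brightest probe set. In limma 0 of these 53 passed an adjusted p of 0.05 in either direction and 0 had an unadjusted p under 0.05, while 37 had a log2 fold change above 0. Of all 11062 genes at their brightest tested probe set, 0.0271% passed the adjusted p, 4.06% had an unadjusted p under 0.05 and 52.2% were above 0, with a median of 0.01. The list named compact myelin had 8 genes. Of these, 5 were tested and all 5 were above 0, with a median log2 fold change of 0.32. The name is broad and does not place every protein of the list, such as Cnp, in compact myelin. Of the 5 tested, 2 are Mbp and Pmp22. The others were Pmp2, a fatty acid binding protein of peripheral myelin (0.32 ± 0.30 SE), Mal, a myelin proteolipid (0.23 ± 0.23), and Cnp, an enzyme of myelin-forming cells (0.21 ± 0.23). Cnp had 325, 490, 529 and 393 on the GRKO arrays and 245, 436, 492 and 350 on the WT arrays, with WT replicate 1 and GRKO replicate 1 lowest in their groups.

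The list of non-compact myelin, node and adhesion proteins had 10 tested genes, 8 of them above 0, with a median of 0.38. Drp2, which binds periaxin and dystroglycan at the outer Schwann cell membrane, differed by 0.38 ± 0.22 (log2 fold change ± SE), the tetraspanin Cd9 had 0.38 ± 0.25, and Lgi4, a secreted signal for myelination, had 0.43 ± 0.38. Drp2 had 89, 71, 120 and 93 on the GRKO arrays against 62, 58, 94 and 73 on the WT arrays, and its second tested probe set, 1441224_at, had a log2 fold change of 0.15.

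The lineage list includes Sox10 and S100b. Of 10 tested, 8 were above 0 and the median was 0.09. Dhh had a log2 fold change of 0.63 ± 0.33 (SE), with 27, 52, 67 and 45 on the GRKO arrays and 21, 38, 37 and 25 on the WT arrays. Erbb3, the neuregulin receptor through which axons keep Schwann cells alive, had -0.29 ± 0.20, with 54, 61, 65 and 62 on the GRKO arrays and 55, 80, 81 and 83 on the WT arrays. Unlike Mbp, Erbb3 was as high in WT replicate 4 as in WT replicates 2 and 3. Nab2, a partner of Egr2, had 0.14 ± 0.23.

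Genes of non-myelinating Schwann cells had a median of 0.29 over 4 tested genes, of which 3 were above 0. L1cam, an axonal and glial adhesion molecule, differed by 0.42 ± 0.22 (log2 fold change ± SE), the neurotrophin receptor Ngfr 0.16 ± 0.27, and Scn7a, a sodium channel of these cells, -0.11 ± 0.28. Scn7a was highest in WT replicate 4, at 47, where Mbp was lowest. In the myelin lipid list 4 of 7 tested genes were above 0 and the median was 0.08: Ugt8a, which makes galactosylceramide, had 0.66 ± 0.41, and the cholesterol synthesis enzymes Sqle and Hmgcs1 had 0.42 ± 0.28 and -0.23 ± 0.18.

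Axonal, denervation and immediate early genes were read beside these. Of the axon list 2 of 8 genes were bright enough to test, Uchl1 (log2 fold change 0.38 ± 0.30 SE) and Stmn2 (0.19 ± 0.26), with a median of 0.28, and both Nefl probe sets were dim, at 12 or less. Of 9 denervation-responsive muscle genes tested, Ncam1 among them, 7 were above 0 and the median was 0.14. The embryonic myosin Myh3 had -0.41 ± 0.26, the muscle transcription factor Myog 0.22 ± 0.19 and the perinatal myosin Myh8 0.43 ± 0.42. Egr2 also belongs to the immediate early genes, of which 1 of 7 tested was above 0, with a median of -0.20. Nr4a1, a nuclear receptor, had -0.30 ± 0.16, Junb -0.34 ± 0.25 and Fos -0.25 ± 0.24.

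Markers of other cells also stood apart on the array that was lowest for myelin genes. Fibroblast and matrix markers had a mean centred log2 signal of -0.85 in WT replicate 4, against 0.17 in WT replicate 3 and 0.08 to 0.33 on the GRKO arrays. Of 9 tested, 7 were above 0, and their summed signal was 12550.0 to 18068 in GRKO and 7123 to 14212 in WT muscle. Of 10 endothelial markers 9 were above 0. Their summed signal, which the brightest probe sets dominate, was 4569 to 6598 in GRKO and 3339 to 4428 in WT muscle, ranges that did not overlap. Their mean centred log2 signal did overlap, with -0.08 in GRKO replicate 2 and -0.03 in WT replicate 3. Myofibre markers were highest in WT replicate 4, at 0.79, with 0 of 8 above 0 and summed signals of 78120.0 to 121552 in GRKO and 85260.0 to 190329 in WT muscle. GRKO replicate 1, low for Mbp and Pmp22, had 0.08 for fibroblast and 0.05 for endothelial markers. Over the 8 arrays r with the myelin profile was 0.84 for the fibroblast and 0.77 for the endothelial list. Their median log2 fold changes were 0.55 and 0.40, beside 0.55 for the 6 tested Schwann cell and myelin genes at their brightest probe sets. In these lists 0 genes passed an adjusted p of 0.05 in limma. The part of these cells in the myelin values was not tested.

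The summed signals of the other marker lists overlapped between the groups. Smooth muscle and pericyte markers had summed signals of 5241 to 6620.0 in GRKO and 5444 to 6719 in WT muscle, with 3 of 5 tested above 0. Macrophage and leukocyte markers had 483 to 1104 in GRKO and 513 to 1682 in WT muscle (2 of 5 above 0). Ptprc alone gave 999 of the highest sum, in WT replicate 4. Adipocyte markers had 2127 to 3673 in GRKO and 2223 to 5541 in WT muscle (1 of 3). Most of that sum was Fabp4, with 5501 in WT replicate 4, where the mean centred log2 signal of the list was -0.29. Satellite cell markers had 543 to 620.0 in GRKO and 472 to 636 in WT muscle (2 of 4). Perineurial and endoneurial markers had 217 to 319 in GRKO and 201 to 260.0 in WT muscle (2 of 2). Mog, Olig1 and Olig2, which define oligodendrocytes, the myelin-forming cells of the brain and spinal cord, lay at signals of 10 or less on all 8 arrays. The fourth gene of that list, Mobp, passed the filter at 1 of its 5 probe sets, 1436263_at, with 16 to 21 in GRKO and 17 to 27 in WT muscle, and the summed signal of the list was 17 to 32 in GRKO and 18 to 37 in WT muscle. The ratio of the 3′ to the 5′ Gapdh control probe set, a sign of RNA quality, was 0.80 to 0.91 on the GRKO arrays and 0.80 to 1.20 on the WT arrays, with WT replicate 4 highest. The same ratio for actin was 1.07 to 1.84 on the GRKO arrays and 0.99 to 1.73 on the WT arrays, with GRKO replicates 3 and 1 above WT replicate 4. The part of RNA quality in the myelin values was not tested.

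**Figure D5:**
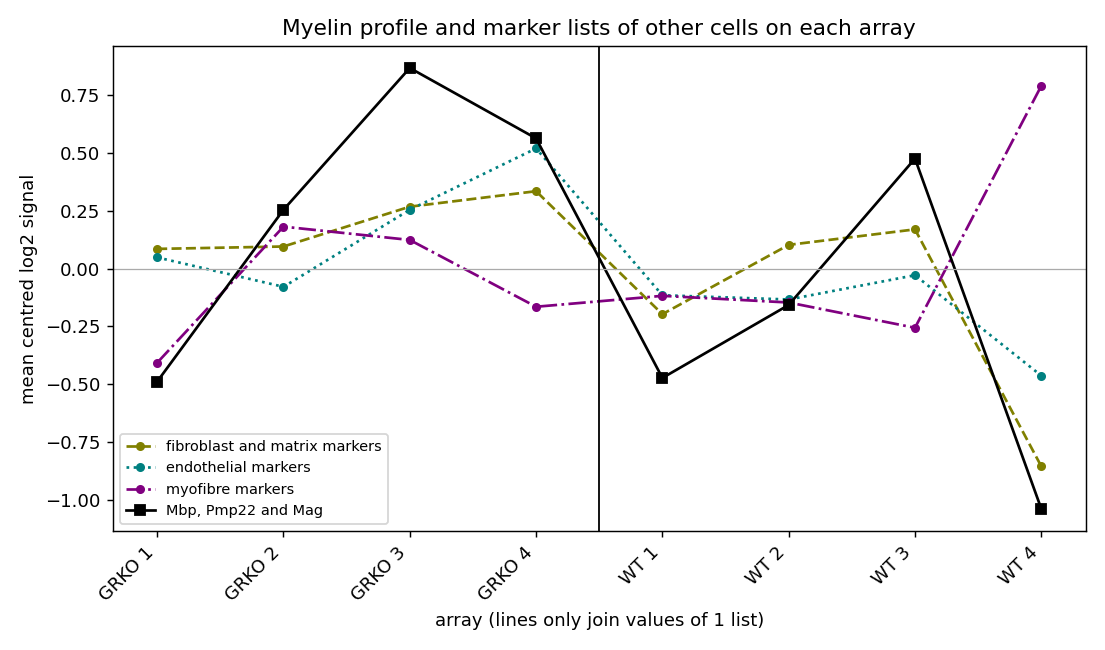
Mean centred log2 signal (y axis) of Mbp, Pmp22 and Mag and of the fibroblast, endothelial and myofibre marker lists on each array (x axis, GRKO left of the line and WT right). The myelin profile is lowest in WT replicate 4, at -1.04, where fibroblast markers are at -0.85 and myofibre markers at 0.79, and it is -0.49 in GRKO replicate 1, where fibroblast markers are at 0.08.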

How the data were processed

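Biotin-labelled RNA of 8 gastrocnemius samples was measured on 1 Affymetrix array each. Each deposited number is a linear intensity that the authors computed with MAS5, per the submitters' processing notes; version and scaling target: not given in the sources used here. Values were whole numbers with a 2% trimmed mean of 99.96 on every array, a common scaling. Of 45101 probe sets, 64 controls were left out. The platform annotation gave 1 gene symbol for 34945 of the other 45037, several for 932 and none for 9160, and 34741 were matched to RefSeq by gene ID.

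The log2 signal was used with no pseudocount, and a 0 was set to the smallest positive value of its array. The 22518 probe sets above the median mean log2 signal were fitted with limma 3.58.1 in R 4.3.3 (lmFit, eBayes with trend; group was the only term; two-sided). P-values were adjusted by Benjamini and Hochberg's method across these probe sets. Lists used each gene's brightest tested probe set. Figures used Python 3.11.15. The fit was tested on simulated data.

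Members and lists were chosen with earlier results of these data known. Named genes were every member probe set, Nr3c1, up to 3 genes per list with the smallest p, further genes picked whatever their p, some of which are not reported here, and the 6 most like the profile. Alternatives were quantile normalization, median centring, pseudocounts of 2 and 6, other filters, 1 value per gene, other priors, array weights, a replicate block, a threshold of 0.10 and each array left out. The likeness shares without WT replicate 4 were added after its spike-in signals were seen. Correlations of same-numbered samples were -0.12, 0.11, 0.09 and -0.38. The labels do not say whether the replicate numbers pair the samples, and so few correlations cannot settle it.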

Additional observations from a re-analysis of the deposited data

Results flagged for a closer look

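Of 28 groups of 4 arrays screened, 2 for each tested probe set, 3 held 1 array far from the other 3, where chance flags about 1 in 20. At Sox10 1451689_a_at the gap of GRKO replicate 1, at a signal of 12, took 0.961 of the range of the GRKO group on the log2 scale. At Ncam1 1450437_a_at the gap of WT replicate 4, at 3, took 0.938 of the range of the WT group. At S100b 1434342_at the gap of WT replicate 1, at 29, took 0.839 of the range of the WT group.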

How the results depend on the processing

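Of 265 alternative values for the 14 tested probe sets, 262 kept the direction and the side of the threshold and 3 changed sign, each with 1 array left out. Many of these values could not change direction. Other filters, the brightest probe set per gene, other priors, the replicate block and the looser threshold leave each log2 fold change as it was. Over the arrays left out, the log2 fold change ranged from -0.99 to 0.0064 for Mbp 1425264_s_at, from -0.017 to 0.27 for Sox10 1424985_a_at and from -0.14 to 1.17 for Ncam1 1450437_a_at. The other settings moved some values by over 1.5 times. Among these, Ncam1 was 0.11 and Sox10 1424985_a_at 0.078 with array weights, where Sox10 was 0.15 in the main fit. With the mean of a gene's probe sets, which is a value of the gene and not of 1 probe set, Mbp was 0.28, Sox10 0.44 and S100b 0.64. The number of these probe sets past the threshold was 0 under every alternative run, as was the number of list genes, with at most 7 at an unadjusted p under 0.05 among the probe sets in limma. That 7 was reached without GRKO replicate 1, where 1919 of all 22518 had such a p, and without WT replicate 3, where 790 did. Over all probe sets the count of 5 became 3 with quantile normalization, 0 with no filter (1944 at an unadjusted p under 0.05), 1 with the mean of a gene's probe sets, 1 without the trend and 10 with array weights. With the replicate block it was 0 (753 at an unadjusted p under 0.05). The block called no probe set of the genes described here, and 2 of the 14 had an unadjusted p under 0.05 in limma. With arrays left out the count over all probe sets ranged from 0 to 5. It was 0 without GRKO replicate 2, 3 or 4 or WT replicate 1 or 3. Signals near the filter are noisy, which limits Sox10, S100b, Mag, Ncam1 and Egr2.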
